A study of Mus musculus with 12 samples.

Results

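Fully grown mouse oocytes that had lost Rnaseh1 were compared, gene by gene, with fully grown oocytes of the floxed control. The genes compared were all those with a mean of at least 1 FPKM (fragment counts scaled to transcript length and library size) over the 6 value columns of the series, 10110 of 25162 genes. The control carries the floxed allele on both chromosomes (Rnaseh1 fl/fl) and is called WT, as in the sample labels. The deletion is headed Rnaseh1 oo-/- and is called KO. The labels name 12 samples, 2 for each genotype at each of 3 stages of oocyte growth, NGO, GO and FGO. These names are not explained in the labels and usually mean non-growing, growing and fully grown. Every sample was made from 10 oocytes, to which 100 pg of ERCC spike-in RNA was added. The table gives 1 column per genotype and stage, in FPKM, with a spike-in adjustment made by the authors. Whether a column is a mean, a pool or a single sample is not stated. No difference below could therefore be set against a spread between replicates, and neither p-values nor SDs are given. The sources used here do not name the Cre driver, the deleted exons, the strain or the age of the females, and the depth behind a column is unknown. In a bulk sample, fewer oocytes and less RNA per oocyte cannot be told apart.

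RNase H1 cuts the RNA strand of RNA-DNA hybrids, among them R-loops, in which a new transcript pairs with its template and displaces the other DNA strand. It works in the nucleus and also in mitochondria, where it removes RNA primers during replication of mitochondrial DNA. A growing oocyte transcribes actively and stores messenger RNA. As it reaches full size its chromatin condenses around the nucleolus, transcription stops, and the stored messages serve maturation and the early embryo.

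The oocyte identity of both columns was clear from the markers. Of 18 oocyte markers, 17 stood at 1 FPKM or more in WT FGO and 18 in KO FGO, with Sohlh1, a factor of early oocytes, listed at 0 in WT and 1.03 in KO. Rnaseh1 itself had 8.61, 27.8 and 29.1 FPKM in WT at NGO, GO and FGO, and 0.931, 3.10 and 8.02 in KO. Its difference at FGO was -1.74 as deposited and -2.35 after the rescaling described below, on the log2(FPKM + 1) scale used for every difference here. Whether the KO value comes from exons outside the deletion was not tested, as the deleted exons are not named. Summed markers of other ovarian cells differed between the columns as deposited. The sum of the 24 granulosa cell markers was 16.8 FPKM for the WT FGO column and 46.4 for KO, 12.9 and 20.5 after rescaling, with 5 and 8 of them at 1 FPKM or more. Of these markers Inha, an inhibin subunit, and Gja1, a gap junction protein, differed by 1.44 and 1.23 after rescaling, at 1.17 and 9.32 FPKM and at 0.965 and 6.96. Cyp19a1, the aromatase, was the largest contributor at 6.16 and 10.4 FPKM. Hsd17b1 (0.845 and 3.71), Fshr (0.756 and 1.70), Nr5a2 (2.24 and 4.52) and Kitl (1.59 and 3.19) were also listed at more in KO as deposited. After rescaling, Cyp19a1, Nr5a2 and Kitl differed by only -0.03, 0.15 and 0.12. Inhba (0.742 and 0.453) and Inhbb (0.213 and 0.0399), other inhibin subunits, were listed at less in KO. At or near 0 were Foxl2 (0.0130 and 0), Wnt4 (0 in both) and Amh (0.0206 and 0.282). Theca and stroma markers summed to 4.19 and 1.36 FPKM, immune markers to 48.4 and 72.6, nearly all from C1qb, and endothelial and blood markers to 9.79 and 17.7, mostly from Pecam1. What part these cells had in any difference below was not tested.

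Nearly the whole transcriptome was listed higher in KO FGO as deposited, and only a small group of genes stood apart once that common shift was taken out. As deposited, 2612 genes (25.8%) were above WT by 2-fold or more in KO and 16 (0.158%) were below it by as much, around a median difference of 0.72. For the second scale, the columns were brought to a common median gene, each by the median of its ratios to the genes' geometric means. The divisors were 1.31 for WT FGO and 2.26 for KO FGO, and the median difference became 0.02. On this rescaled footing 170 genes (1.68%) passed 2-fold upwards and 95 (0.94%) downwards, and 8 and 6 of them passed 4-fold. The middle of the distribution was narrow, with 77.5% of genes within 0.5 of 0 and quartiles at -0.25 and 0.30. The 16 genes lower as deposited were all among the 95, and the 170 higher were all among the 2612. The split between higher and lower calls depended on the scaling. Of the rescaled calls 64.2% were higher, against 81.0% when columns were set to equal totals, which moved the median gene to 0.13, and 75.3% with a pseudocount of 0.1. Unless said otherwise, "higher" and "lower" below mean at least 2-fold after rescaling. Throughout, 2-fold means a difference of 1 on log2(FPKM + 1). At low FPKM this asks for a plain ratio above 2, so some uncalled genes had one. Hdac11, for example, was uncalled at 0.105 and 0.848 FPKM, a rescaled ratio of 4.67. Counts of calls in gene lists are to be read beside the 1.68% and 0.94% of all genes.

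**Figure D1:**
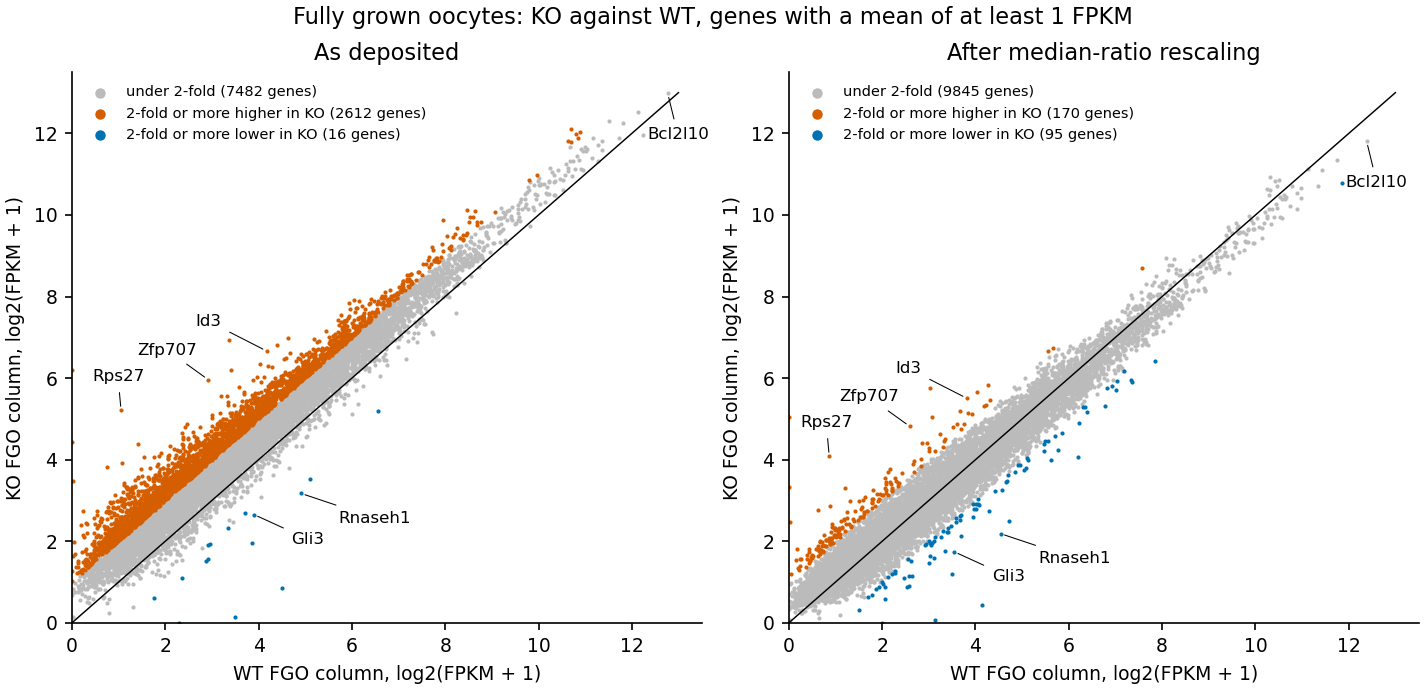
Value of each of the 10110 genes in the KO FGO column (vertical axis) against the WT FGO column (horizontal axis), both as log2(FPKM + 1), as deposited on the left and after median-ratio rescaling on the right. Each point is 1 gene and the line marks equal values; most points lie above the line on the left, and on the right 170 orange and 95 blue genes lie apart from a band centred on the line.

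Most genes higher in KO had a WT value that was lower at FGO than at GO. As deposited this held for 152 of the 170 in WT and for 87 in KO, against 4388 and 953 of the 9845 genes called in neither direction. For the 170, the median FPKM over NGO, GO and FGO went through 4.15, 8.73 and 1.92 in WT and through 3.68, 11.3 and 11.4 in KO. The uncalled genes had medians of 3.70, 9.47 and 9.69 in WT and 3.35, 8.96 and 16.8 in KO. The FGO columns chose the genes, so these medians describe them and test nothing. At the median, the WT column was below its own GO level for these genes and the KO column was level with it.

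Transcriptional regulators were among the largest differences. Zfp707, a zinc finger gene, went through 27.5, 89.2 and 6.55 FPKM in WT and 29.5, 109 and 61.5 in KO, a difference of 2.23 at FGO. Id3, which blocks the DNA binding of basic helix-loop-helix factors, ran from 135 through 195 to 17.03 FPKM in WT and from 82.1 through 184 to 101 in KO, and differed by 1.70. The genotypes were thus close at GO for both genes and far apart only in the last stage. Tgif1, a homeodomain repressor in the TGF-beta pathway, had 4.56 and 28.5 FPKM in the WT and KO FGO columns, and Tbpl2, the oocyte form of the TATA-binding protein, 9.18 and 39.5. Among the 237 zinc finger genes named Zfp, 9 were higher and 0 lower, beside 1.68% and 0.94% of all genes compared. Of these Zfp genes 87 (36.7%) lay among the top 25% of all genes, and 23 (9.70%) among the bottom 25%. Their median was 0.20, and 0.11 once the median of genes of like transcript length and level was subtracted. Zfp263 (1.66 and 10.995 FPKM) and Zfp617 (1.27 and 9.02) followed Zfp707 in that family.

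Single genes of RNA metabolism were also higher. Ddx4, the germ cell helicase VASA, had 72.8 FPKM at GO and 15.4 at FGO in WT against 122.8 and 80.1 in KO, a difference of 1.51. Patl2, a repressor of stored messages that human and mouse oocytes need for maturation, went from 125 to 23.95 FPKM in WT and from 168 to 126 in KO, a difference of 1.55. Ythdf2, a reader of methylated adenosine that speeds messenger decay, went from 65.0 to 23.1 and from 92.3 to 89.4, a difference of 1.12. All 3 dropped between GO and FGO in the WT column by a wider margin than in the KO column. Of 46 DEAD and DEAH box helicases, 2 were higher, Ddx4 and Ddx47, and 0 lower, beside 1.68% and 0.94% of all genes compared. The list median was 0.23, and 3 members lay among the bottom 25% of genes. Nop2, a methyltransferase of ribosomal RNA, belongs to ribosome assembly and was at 2.41 FPKM in WT FGO against 15.7, a difference of 1.49. Of 71 ribosome assembly genes 3 were higher, Ddx47, Nop2 and Wdr3, around a median of 0.09, again beside 1.68% of all genes.

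Single genes of the chromatin lists were higher as well. Kdm1b, the H3K4 demethylase that oocytes need to lay down maternal DNA methylation, ran through 19.2, 31.6 and 11.04 FPKM in WT and 22.1, 84.6 and 54.0 in KO. It differed by 1.46 at GO and 1.40 at FGO, so the KO column was ahead at both stages. Prmt7, an arginine methyltransferase, had 14.6 and 64.5 FPKM at FGO, a difference of 1.28. Prmt9, of the same family, had 0.565 and 4.83, a difference of 1.13 that rests on a low WT value. At GO it differed by -0.04. These 3 were the only members past 2-fold in the list made for histone methyltransferases and demethylases outside the H3K9 group (39 genes). The median of that list was -0.08, and 1.68% of all genes compared were higher. The 33 acetyltransferases and deacetylases and the 17 genes of H3K9 methylation and heterochromatin had 0 calls in either direction and medians of 0.00 and -0.11.

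The highest rescaled medians belonged to 4 lists of metabolic genes, an order that did not hold once length and level were taken into account. Ldhc, the lactate dehydrogenase of germ cells, stood at 157 FPKM in GO and 19.9 in FGO of WT, and at 107 and 111 in KO, a difference of 1.63. Impdh2, which commits purine synthesis to guanine nucleotides, had 0.766 and 6.80 FPKM at FGO, a difference of 1.34. It led the 28 genes of serine, one-carbon and nucleotide synthesis, of which 17 passed 2-fold on the deposited values and 1 after rescaling. Their median was 0.43, the highest of the 64 lists, and 17 of the 28 lay among the top 25% of all genes. Mat2a, which makes S-adenosylmethionine, had 13.6 and 47.5 FPKM, a difference of 0.95 and so just short of a call. Its plain ratio after rescaling was 2.03. Cholesterol and isoprenoid synthesis (22 genes) had a median of 0.29, the citric acid cycle (22) 0.26, and fatty acid oxidation with lipid droplets (23) 0.26. After genes of like length and level were subtracted these 3 medians were 0.14, 0.14 and 0.18. They were then below those of other oocyte NLR-family genes (0.27), egg coat genes (0.26) and oocyte transcription factors (0.21). Serine, one-carbon and nucleotide synthesis (0.29) and another metabolic list, glycolysis and pyruvate (0.31), stayed above these oocyte lists. In the cholesterol, citric acid cycle and fatty acid lists, 11, 11 and 10 genes were 2-fold higher as deposited and 0, 0 and 1 after rescaling. The 1 was Hadh, an enzyme of beta-oxidation, at 1.39 and 7.66 FPKM. Of all genes compared, 25.8% were 2-fold higher as deposited and 1.68% after rescaling. Gsr, which keeps glutathione reduced, was higher at 1.11 and 6.37 FPKM, while Sod1, the cytosolic superoxide dismutase, was lower at 20.3 and 14.7. The 31 redox genes as a list thus held 1 call each way and a median of -0.11.

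Protein folding and traffic contributed single genes. Cct6a and Cct4, subunits of the CCT ring that folds actin and tubulin, had 4.39 and 17.3 FPKM in WT FGO against 26.96 and 78.1 in KO, differences of 1.57 and 1.32. Other subunits of the same ring were nearer to the median gene, with Cct7 at 0.55, Cct3 at 0.39, Cct2 at 0.25, Tcp1 at 0.23, Cct5 at 0.04 and Cct8 at 0.03. Arf4, a GTPase of Golgi transport, had 11.96 and 49.4 FPKM, and Rab11b, of recycling endosomes, 5.37 and 22.1. Rab21, another endosomal GTPase, went the other way, at 167 and 116 FPKM, a difference of -1.29. Among 38 Rab genes 2 were higher and 2 lower. Wee1, the kinase that holds Cdk1 inactive, had 18.5 and 4.59 FPKM at GO and FGO of WT and 25.2 and 22.3 in KO, and was the single call among 49 cyclins, Cdks and their regulators. Haus4, of the augmin complex of the spindle, was the single call among 33 genes of the spindle pole, at 60.5 and 227 FPKM.

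Other leading genes had no place in these lists. Tuft1 had 1.93 and 15.8 FPKM, Adora2b, an adenosine receptor, 8.17 and 46.2, Csrp1, a LIM-domain protein, 4.15 and 24.1, and Ctsl, a lysosomal protease, 1.78 and 12.6. All 4 had lower WT values at FGO than at GO. For Ctsl the step was small, with WT values of 1.54, 2.201 and 1.78 FPKM against 2.45, 1.91 and 12.6 in KO. Snapc2, a subunit of the complex that starts small nuclear RNA genes, had 14.7 and 1.101 FPKM at GO and FGO of WT and 22.4 and 14.2 in KO. It was the single call among 29 genes of RNA polymerases I and III, whose median was 0.24.

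**Figure D2:**
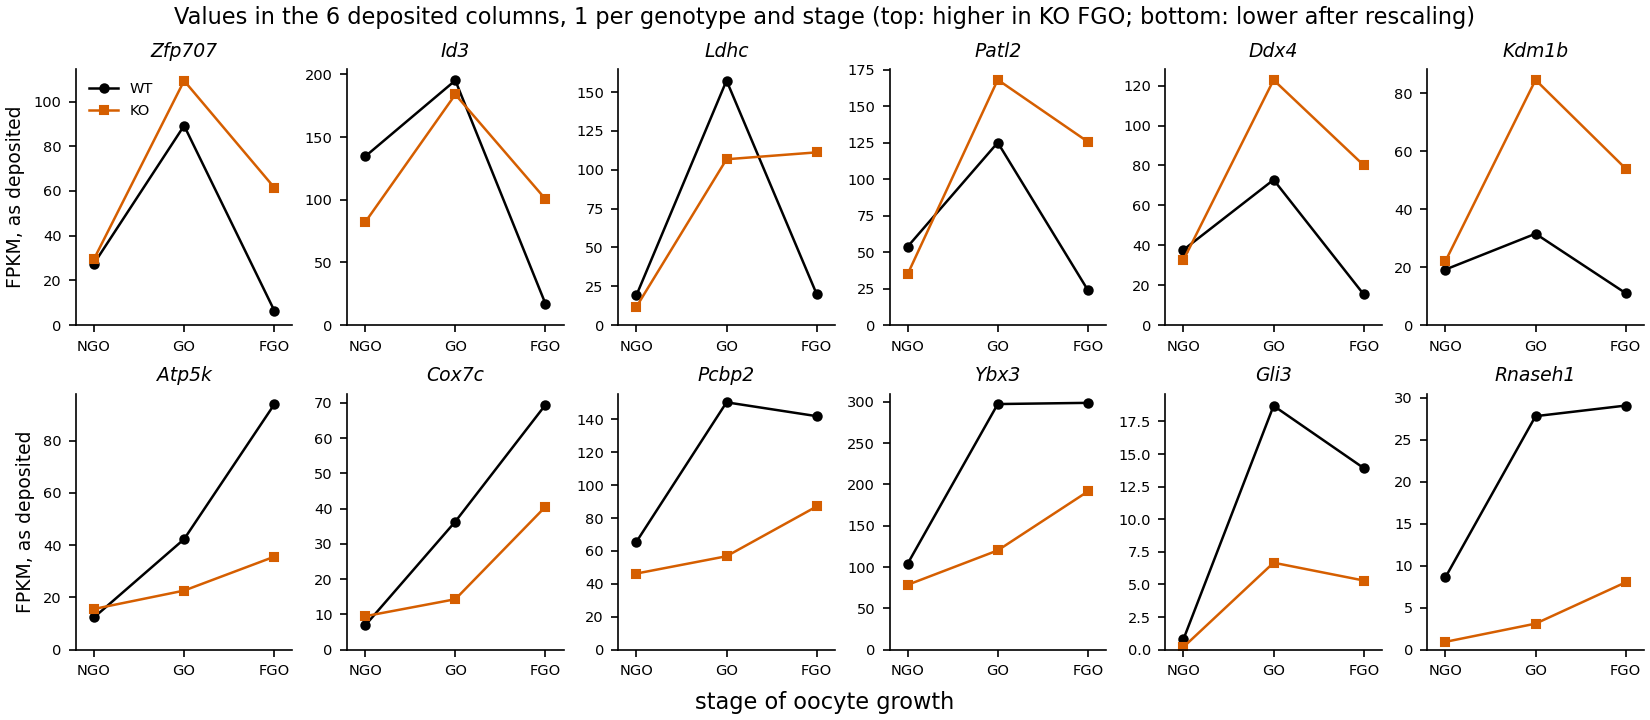
FPKM as deposited (vertical axis, from 0, a separate scale for each gene) at NGO, GO and FGO (horizontal axis) in the WT column (black circles) and the KO column (orange squares), 1 value per point. In the top row (Zfp707, Id3, Ldhc, Patl2, Ddx4 and Kdm1b) the WT line drops from GO to FGO and ends below KO, and in the bottom row (Atp5k, Cox7c, Pcbp2, Ybx3, Gli3 and Rnaseh1) the WT line ends above KO.

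The genes lower in KO had another history. For the 95, the median FPKM in WT was 3.27, 11.3 and 15.7 at NGO, GO and FGO, and in KO 2.38, 4.51 and 10.6. The KO median was thus already behind at GO. Its place below WT at FGO follows from the choice of the genes by the FGO columns, so the FGO medians describe them and test nothing. As deposited the WT value was lower at FGO than at GO for 11 of them and the KO value for 13.

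Short messages of the respiratory chain led this group. Atp5k, a small subunit of ATP synthase, went through 12.3, 42.3 and 93.9 FPKM in WT and 15.6, 22.6 and 35.6 in KO, a difference of -2.12 at FGO and -0.79 at GO. Ndufs5 of complex I had 24.3 and 12.8 FPKM at FGO, Cox7c of complex IV 69.4 and 40.5, Atp5e of ATP synthase 209 and 139, and Uqcr10 of complex III 29.6 and 19.2. Their differences ran from -1.32 for Uqcr10 to -1.56 for Ndufs5. In all 12 of 91 nuclear-encoded respiratory genes were lower and 1 higher, beside 0.94% and 1.68% of all genes compared. The higher gene was Uqcrc1, a core subunit of complex III with a longer message, at 8.94 and 46.0 FPKM. Dnajc19, a co-chaperone of mitochondrial import, had 15.5 and 7.54 FPKM, and Lars2, the mitochondrial leucyl-tRNA synthetase, 26.8 and 19.1. The mitochondrial import list as a whole had a median of -0.10 with 1 of 32 lower, and the 78 mitochondrial ribosomal proteins -0.24 with 0 calls.

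RNA-binding proteins of the messenger pool also stood in the lower group. Ybx3, a cold-shock protein that binds messenger RNA, had 104, 297 and 299 FPKM in WT and 78.5, 120 and 192 in KO, a difference of -1.42. Pcbp2, which binds C-rich stretches of messages, had 65.5, 150 and 142 in WT and 46.3, 56.8 and 87.0 in KO, a difference of -1.47. Both were also lower at GO, by 1.22 and 1.31 on the same scale. Lsm14b, a component of oocyte storage particles, had 11.3 and 7.502 FPKM, and Pabpn1, the nuclear poly(A)-binding protein, 31.4 and 22.4. Ybx2, the germ cell relative of Ybx3, had 90.7 and 91.5 FPKM, a difference of -0.76 that did not reach 2-fold. Of 39 genes of messenger storage and translational control, 2 were higher (Patl2 and Ythdf2) and 2 lower (Ybx3 and Lsm14b). The shares over all genes compared were 1.68% and 0.94%. Splicing was represented by Crnkl1 (212 and 134 FPKM) and by the small Sm proteins Snrpe (12.6 and 8.37) and Snrpf (8.78 and 6.31), and 2 of 56 genes of the Sm, LSm and snRNP list were lower around a median of -0.22.

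Single genes of oocyte biology also stood in the lower group. Fmn2, the formin that oocytes need to move the meiotic spindle, had 6.09, 42.8 and 74.1 FPKM in WT and 4.22, 16.9 and 54.9 in KO, a difference of -1.19. Dppa3, which protects the oocyte genome from excess methylation, had 34.04, 68.9 and 105 in WT and 32.3, 40.2 and 85.8 in KO, a difference of -1.07. Gli3, a transcription factor of hedgehog signalling, had 0.796, 18.7 and 13.9 in WT and 0.199, 6.67 and 5.30 in KO, a difference of -1.80. In the 3 genes the deposited KO value was below WT at each stage. Pcna, the sliding clamp of DNA replication, had 9.48 and 6.28 FPKM at FGO, and Stk11, the kinase LKB1, 14.4 and 11.1. Ccl2, a chemokine, had 18.9 and 11.3 FPKM.

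Of the 10 most abundant genes of WT FGO, all but Zp3 had differences below the lower quartile of all genes, -0.25. The WT FGO value that chose these genes is subtracted in each difference. The choice thus favours low differences, which describe the genes and test nothing. Grouped by mean FPKM instead, the most abundant of 10 equal groups had a median of -0.11. The 10 genes included Bcl2l10 (6979 and 8095 FPKM) and Zp3 of the egg coat (2909 and 5061). They also included the oocyte linker histone H1f8 (3604 and 4929) and Btg4, which recruits the deadenylase to maternal messages (3407 and 3799). The differences of the 10 lay between -1.07 and 0.01, and the single call was Rn45s, the ribosomal RNA precursor, at 4820 and 3963 FPKM. Rn45s was listed at 0 in WT NGO, WT GO and KO NGO, and as background it is not a polyadenylated transcript. Among the 14 genes of the subcortical maternal complex and its partners, 7 were 2-fold higher as deposited and 0 after rescaling. The shares over all genes compared were 25.8% and 1.68%. In this list Nlrp5 (MATER) stood at 351 and 1111 FPKM and Ooep at 1401 and 1871. The 11 egg coat and sperm-egg genes, the 14 genes of the oocyte Fbxw cluster and the 10 other oocyte NLR-family genes held 0 calls after rescaling.

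Partners of RNase H1 did not change with it past 2-fold. Of 42 genes of RNase H activity and R-loop resolution, 40 were compared, and Rnaseh1 was the only one called after rescaling, in a list with a median of -0.03. The subunits of RNase H2, which also removes hybrids and single ribonucleotides, had differences of -0.12 (Rnaseh2a, 2.18 and 3.28 FPKM), -0.03 (Rnaseh2b, 6.80 and 11.5) and 0.16 (Rnaseh2c, 20.2 and 39.4). The topoisomerase Top1, which relieves the supercoiling behind transcription, lay at -0.37 with 77.0 and 103 FPKM. Top3b, a topoisomerase with activity on RNA too, was highest in the list at 0.86 (14.2 and 46.6 FPKM), followed by the helicase Aqr at 0.65 (4.66 and 13.9). Lowest after Rnaseh1 were Alyref, an export adaptor, at -0.88 and the splicing factor Srsf1 at -0.73. The 31 genes of DNA damage signalling and p53 had 1 call, Rad9a of the checkpoint clamp (0.919 and 6.05 FPKM), and a median of -0.01. The 12 genes of nucleic acid sensing and RNA clearance had 1 call, Rnaset2a, which is lower.

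Several extreme values belonged to genes with a near-identical copy, where reads can be assigned to either copy. A gene was taken to have a copy when the longest transcript matched another gene of the table, with an identity of 95% or above and a coverage of 50% or above. This held for 13 of the 170 higher genes and for 12 of the 89 lower genes that could be searched. Only called genes and some named ones were searched, 273 in all. The share with a copy among all genes compared is thus unknown. Rps27, a protein of the small ribosomal subunit, had one of the highest differences, 3.21, with 1.07 FPKM for WT and 35.97 for KO. Its retrotransposed copy Rps27rt on chromosome 9 was among the lowest, at 62.9 and 33.6 FPKM and -1.63. The pair summed to 63.9 and 69.6 FPKM, a ratio of 1.09 as deposited and 0.63 after rescaling. The open reading frame of 252 bases is the same in both, with 0 differences, and is shown because no read inside it can tell the 2 genes apart. No base is in capitals, since none differs.
Rps27 and Rps27rt: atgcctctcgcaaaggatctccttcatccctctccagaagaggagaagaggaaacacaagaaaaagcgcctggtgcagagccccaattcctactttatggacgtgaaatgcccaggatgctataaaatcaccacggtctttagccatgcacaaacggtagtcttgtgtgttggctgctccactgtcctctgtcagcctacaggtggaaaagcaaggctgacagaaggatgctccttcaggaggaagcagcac
The same crossing of values was seen in Eif3j1 and Eif3j2, which encode the same subunit of the initiation factor eIF3. Eif3j1 had 10.2 FPKM in the WT column and was listed at 0.0980 in KO, while Eif3j2 had 8.01 and 34.4, and their sum had a ratio of 1.89 against 1.65 for the median gene. The coding sequences of this pair differ by 6 gap positions and 0 substitutions. Rnaset2a, a lysosomal ribonuclease listed at 12.1 and 5.44 FPKM, has a coding sequence without a difference from that of Rnaset2b, which held 369 and 502.

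Other families differed in how the copies compared. Gm12070, which matches Gapdh at 99.9%, had 22.5 and 87.4 FPKM, and Gapdh, the glycolytic enzyme, 3.91 and 15.6, so that the sum rose 3.91-fold as deposited. Oog1, an oogenesin, had 246 and 940 FPKM beside related genes at 1474 and 1851 (Gm2042) and 1971 and 2200 (Gm10436), both less than the 1.65-fold of the median gene. Summed with Oog1, these pairs had ratios of 1.62 and 1.42 as deposited and 0.939 and 0.820 after rescaling. Gm3286 had 9.31 and 121 FPKM, E330014E10Rik 20.5 in KO against a value listed at practically 0 in WT, and their relative D5Ertd577e 55.8 and 150. Rpl7a, a ribosomal protein at 21.7 and 0.815 FPKM, was lower. Its transcript matched that of Ciapin1 (59.5 and 91.4 FPKM) at 96.5% identity in the opposite orientation. The library kit does not mark strand, so strand does not separate reads from the matching stretch. How far the sequence differences separated them was not tested. Among the 82 cytosolic ribosomal proteins 5 were lower and 1, Rps27, higher.

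Some genes were listed at or near 0 in one FGO column only. With under 0.1 FPKM in WT FGO and at least 5 in KO FGO stood Clec2f (0 and 71.9 FPKM), E330014E10Rik, and Slc24a5 (0.0157 and 10.2). The reverse held for Eif3j1 and for Defa-ps1, listed at 5.77 FPKM for WT and at 0 for KO. A value of 0 in a table of this kind can be a failed estimate, and no fold is given. With the higher column at 1 FPKM or more, there were 32 genes of the first kind and 9 of the second. At the edge of the filter on low values, Ncbp1 and Rhox10 lay just inside a mean of 1 FPKM, with 0.256 and 1.34 FPKM and 0.940 and 0.905 in the FGO columns. Pfkfb2 (1.33 and 2.203) and Nf1 (1.09 and 1.64) lay just outside.

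Short transcripts as a class stood lower in KO than long ones. Genes whose longest transcript had up to 600 nt had a median difference of -0.45 (112 genes), and those of 601 to 1000 nt -0.36 (520). The median rose to 0.16 for 2001 to 3000 nt (2239 genes) and returned to -0.06 above 6000 nt (1211 genes). As deposited these medians were 0.27, 0.37, 0.88 and 0.60, so every class had positive values. The classes up to 600 nt and up to 1000 nt held 15 and 19 lower genes and 2 and 1 higher genes. The median transcript was 2510 nt for the higher genes, 1455 nt for the lower and 2990 nt for the rest. Level mattered less, with medians between 0.12 and -0.11 over 10 equal groups of mean FPKM, the lowest in the most abundant group.

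**Figure D3:**
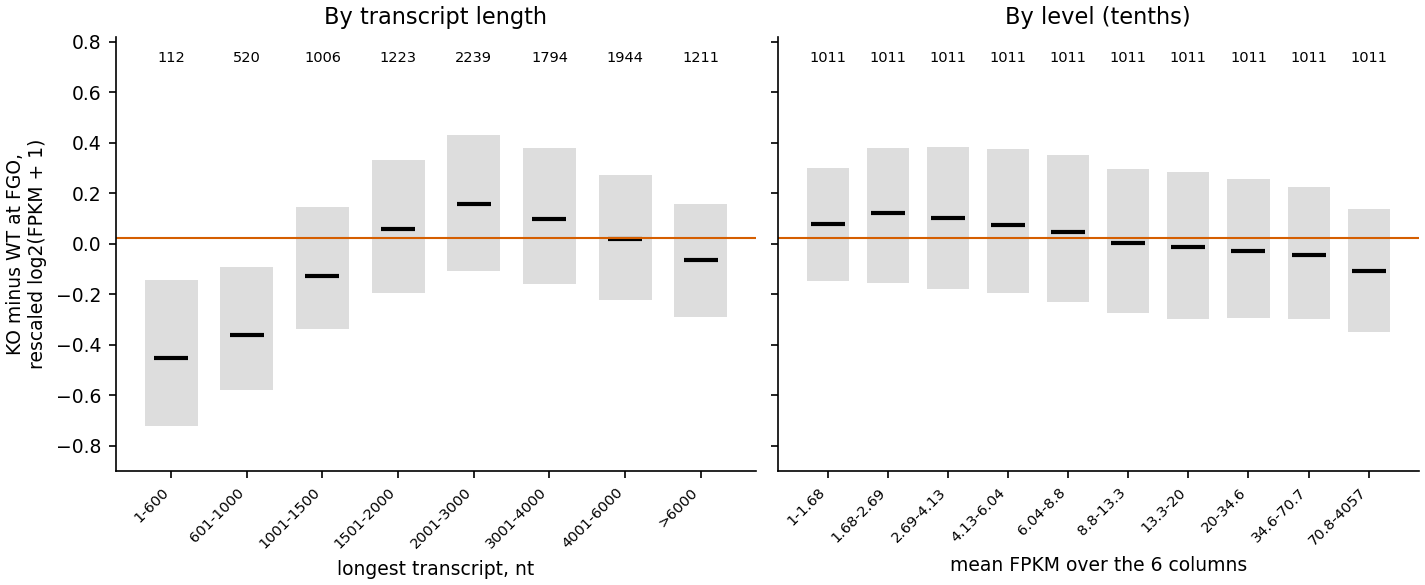
Rescaled KO minus WT difference at FGO (vertical axis, log2(FPKM + 1)) by length of the longest transcript (left) and by 10 equal groups of mean FPKM (right), with the number of genes above each bar. Black marks are medians, grey bars run from the first to the third quartile across genes and the orange line is the median of all genes, 0.02; the 2 shortest classes lie below it, at -0.45 and -0.36.

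Lists of small proteins kept part of their distance once length and level were taken into account. In this alternative, chosen after the data were seen, each gene had the median of the genes of like length and level (5 equal groups of each) subtracted. The respiratory chain list, with a median transcript of 955 nt, went from -0.50 to -0.35, and cytosolic ribosomal proteins (940 nt) from -0.40 to -0.23. The proteasome (1561 nt) went from -0.21 to -0.07, and the SWI/SNF and related remodellers (6354 nt) from -0.20 to -0.10. Psmb4, a core proteasome subunit, was lower at 12.5 and 9.01 FPKM. The remodellers Smarca5 (29.8 and 31.3) and Chd4 (27.98 and 29.9) had differences of -0.68 and -0.65. At the upper end, serine, one-carbon and nucleotide synthesis went from 0.43 to 0.29 and glycolysis from 0.18 to 0.31.

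Further lists of nuclear and division machinery held 0 or 1 call each, beside 1.68% higher and 0.94% lower among all genes compared. Mediator had a median of -0.01 with Med31 lower (6.41 and 4.39 FPKM), and the general transcription factors -0.01 with Tbpl2 higher. Integrator, which ends small nuclear and paused transcripts, had 0.21 and 0 calls. The exosome and nonsense-mediated decay had -0.01 and 0 calls, with Exosc2 at 0.86 and Upf2 at -0.89. Genes of deadenylation and decay had -0.13 with Lsm14b lower. Tubulins and their cofactors had 0.24 and 0 calls, led by Tuba1b (60.8 and 206 FPKM) and Tuba1c (70.2 and 234.5). Cohesin and the meiotic axis had -0.0045 and 0 calls, and 2 of its kleisins stood at opposite ends, with the meiotic Rad21l at 0.88 (0.694 and 4.09 FPKM) and Rad21 at -0.97 (42.7 and 36.7). The kinetochore list had -0.06 and 0 calls. As deposited every one of the 64 lists had a positive median, from 0.25 for respiratory genes to 1.11 for serine, one-carbon and nucleotide synthesis.

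**Figure D4:**
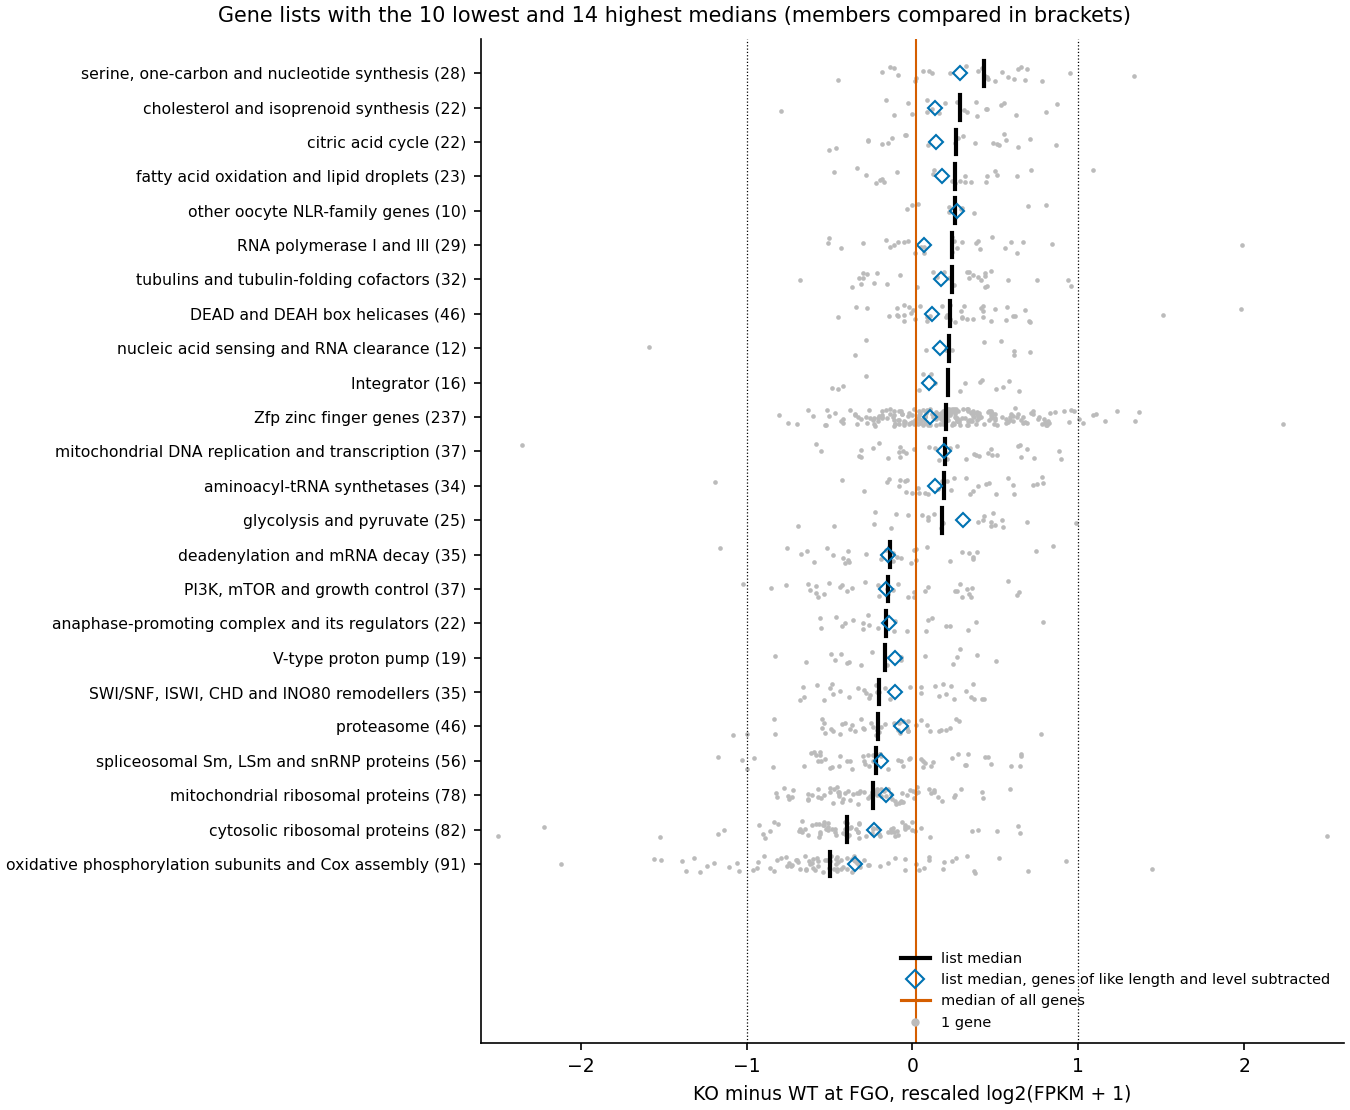
Rescaled KO minus WT difference at FGO (horizontal axis, log2(FPKM + 1)) for the members of the 24 gene lists with the lowest and highest medians. Grey points are genes (values beyond 2.5 are drawn at 2.5), black marks are list medians, blue diamonds the medians after genes of like length and level were subtracted, the orange line the median of all genes and dotted lines 2-fold; respiratory and ribosomal genes lie lowest, at -0.50 and -0.40, and serine, one-carbon and nucleotide synthesis highest, at 0.43.

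Promoter sequence was examined because R-loops are known to form where the displaced strand is rich in G. RefSeq promoters (GRCm38.p6, 250 bases before to 50 after the start) were matched to 8208 of the 10110 genes. They were matched to 77.6% of the higher and 73.7% of the lower genes, under 80%, so a comparison of those classes is void and the genes were divided by sequence instead. Over 5 equal groups from the lowest to the highest GC skew, (G-C)/(G+C) on the coding strand, the median differences were 0.04, 0.03, 0.02, -0.01 and 0.02. Promoters with GGGG on the coding strand (78.3% of those matched, 68.0% of the 27025 in the table, or 94.9% and 85.9% on either strand) had a median of 0.02, and those without it 0.02. The groups by GC content stayed between -0.02 and 0.04 and those by CpG content between 0.01 and 0.05. Cytoplasmic polyadenylation motifs, TTTTAT or TTTTAAT, were searched on the coding strand of the part after the stop codon, and the 6068 genes with one had a median of 0.02 against 0.03 for the 3673 without. Chromosome medians lay between -0.01 and 0.06.

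The promoters of 2 leading higher and 2 leading lower genes that had no copy and were in the table are shown, to set this feature beside the values above. Runs of 4 or more G on the coding strand are in capitals.
Snapc2 (higher, chr8:4252852-4253151, plus strand): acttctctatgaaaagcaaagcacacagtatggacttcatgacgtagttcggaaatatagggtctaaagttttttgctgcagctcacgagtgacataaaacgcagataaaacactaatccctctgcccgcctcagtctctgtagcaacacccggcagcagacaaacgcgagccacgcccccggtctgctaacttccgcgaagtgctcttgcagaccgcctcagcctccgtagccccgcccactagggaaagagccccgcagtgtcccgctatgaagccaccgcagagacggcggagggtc
Ddx47 (higher, chr6:135011362-135011661, plus strand): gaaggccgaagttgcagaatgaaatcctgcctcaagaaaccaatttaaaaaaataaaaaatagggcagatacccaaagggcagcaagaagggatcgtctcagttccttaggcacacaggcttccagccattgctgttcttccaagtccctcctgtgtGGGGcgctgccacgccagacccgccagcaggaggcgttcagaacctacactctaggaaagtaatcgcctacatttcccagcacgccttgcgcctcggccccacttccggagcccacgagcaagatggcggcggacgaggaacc
Atp5k (lower, chr5:108434350-108434649, minus strand): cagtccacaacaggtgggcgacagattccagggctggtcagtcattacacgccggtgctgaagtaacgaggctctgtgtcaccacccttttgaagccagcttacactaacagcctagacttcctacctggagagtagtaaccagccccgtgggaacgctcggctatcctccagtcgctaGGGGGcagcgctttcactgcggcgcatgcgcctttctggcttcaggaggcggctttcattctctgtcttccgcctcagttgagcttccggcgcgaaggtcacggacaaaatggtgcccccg
Gli3 (lower, chr13:15463473-15463772, plus strand): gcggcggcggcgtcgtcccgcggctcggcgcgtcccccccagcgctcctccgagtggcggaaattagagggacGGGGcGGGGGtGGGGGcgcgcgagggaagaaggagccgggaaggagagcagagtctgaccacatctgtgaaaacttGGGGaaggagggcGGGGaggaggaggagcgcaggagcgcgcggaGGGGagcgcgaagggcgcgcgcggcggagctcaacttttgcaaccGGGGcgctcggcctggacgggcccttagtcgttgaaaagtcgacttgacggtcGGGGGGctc
Gli3 held 8 such runs and a GC skew of 0.29, Ddx47 and Atp5k 1 run each, and Snapc2 0 with a skew of -0.14. The 2 higher genes and the lower Atp5k thus had few runs and the lower Gli3 many.

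At GO, a comparison that shares no column with FGO, 106 genes (1.05%) were higher and 129 (1.28%) lower in KO. Of the FGO higher genes 14 were higher at GO too, 8.24% of the FGO and 13.2% of the GO list. Of the FGO lower genes 34 were lower at GO, 35.8% of the FGO and 26.4% of the GO list. A GO difference of the same sign was found for 130 of the 170 higher and 88 of the 95 lower genes, with GO medians of 0.37 and -0.83 and NGO medians of 0.15 and -0.19. Higher at both stages were Kdm1b, Ddi2, a protease that serves the proteasome (6.40 and 29.7 FPKM at GO, 9.15 and 41.5 at FGO), Myot, Zfp473 and Lzts1. Lower at both were Rnaseh1, Gli3, Smim4 (6.53 and 1.94 FPKM at FGO), Rnaset2a and Cox7c. Across the genes, differences at FGO and GO had Pearson r = 0.54, and FGO and NGO 0.28, given as a description, since genes of a column share its scale and library.

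**Figure D5:**
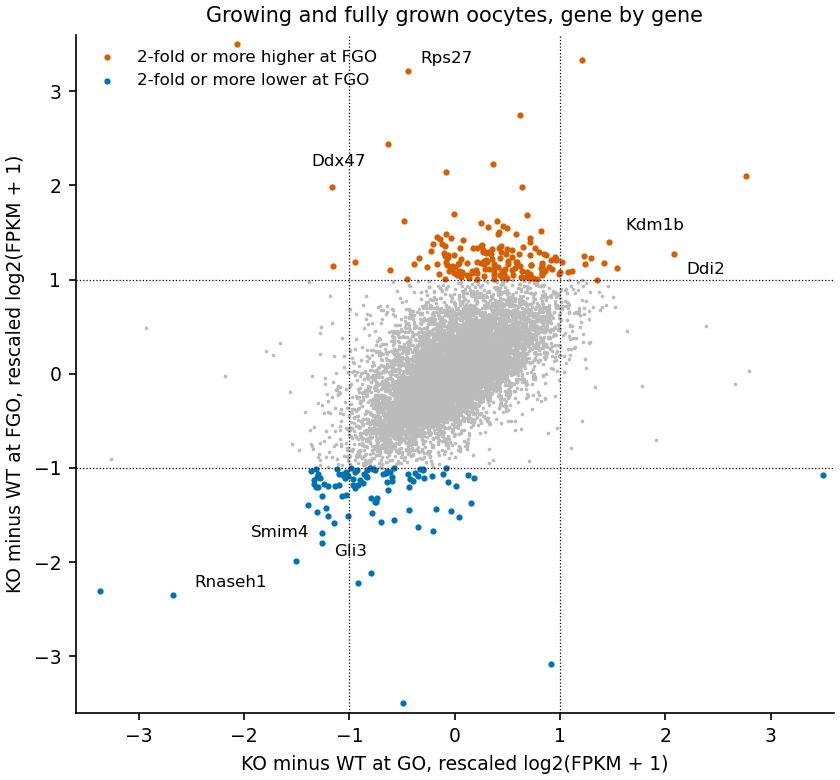
Rescaled KO minus WT difference of each of the 10110 genes at FGO (vertical axis) against GO (horizontal axis), both on log2(FPKM + 1), with values beyond 3.5 drawn at 3.5 and dotted lines at 2-fold. Orange genes are the 170 higher and blue genes the 95 lower at FGO; 34 blue genes lie past the left dotted line and 14 orange genes past the right one, with Rnaseh1 at the lower left.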

How the data were processed

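Polyadenylated RNA of oocytes was amplified by Smart-seq2 and sequenced as 150 bp read pairs, per the labels' protocols, with a kit that does not mark strand. The submitters' processing notes name the build mm10, Cufflinks 2.2.1, HISAT2 2.2.1 and Trim Galore 0.6.7. The deposited table holds FPKM with a spike-in adjustment by the authors, per the name of the table. The sources used here give neither the gene annotation nor the formula of that adjustment, and depth is unknown. The table had 25912 lines. Of these, 2 with an error mark were dropped, and for 333 repeated symbols the line of highest mean was used.

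Differences are KO minus WT on log2(FPKM + 1), called at 1 or more in size, as deposited and after median-ratio rescaling. With 1 column per group no test was made. The genes and the 64 lists were chosen with earlier results of these data known. Genes named are Rnaseh1, the 15 largest differences each way among genes with a proper name, 1 line, at least 10 FPKM in the higher and 1 in the lower column, the 10 most abundant, up to 3 per list and direction, 5 per direction shared with GO, and genes near 0 in one column or near the filter. Subunits of CCT, RNase H2 and other single genes outside this rule were named after their values were seen, to complete a family. Some genes under this rule are not reported here. Lengths and motifs came from GENCODE M21 and copies from blastn 2.17.0. Steps were tested on simulated data. Software was Python 3.11.15, numpy 2.4.6 and pandas 2.3.3. Alternatives changed the scaling (equal totals, or the FGO columns alone), the pseudocount (0.1) or the genes kept (a mean of at least 5, all, single-line symbols, none listed at 0).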

Additional observations from a re-analysis of the deposited data

Results flagged for a closer look

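Differences between KO and WT went past 2-fold in opposite directions at GO and FGO for 4 genes. These differences between stages were not tested, since each rests on single columns. Ddx47, a helicase of ribosome assembly, was lower in KO at GO (52.3 and 21.4 FPKM) and higher at FGO (9.70 and 73.0), a shift of 3.15 between the stages. Clec2f, a lectin-like receptor gene, had 12.8 and 1.97 FPKM at GO and 0 and 71.9 at FGO. Its shift of 7.11 rests on the value of 0, which can be a failed estimate, and is no measure of size. The clone 2210409E12Rik had 12.3 and 4.56 FPKM at GO and 3.89 and 17.6 at FGO, a shift of 2.30. Its transcript matched that of Elobl at 95.2% identity over 78.3% of its length. For Rn45s, a precursor of ribosomal RNA, the listed values were 0 and 3173 FPKM at GO and 4820 and 3963 at FGO, a shift of -12.41 that rests on a value of 0 in the same way.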

How the results depend on the processing

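The median difference as deposited was 0.72 and fell to 0.12 when the 25162 genes were kept with no filter. The 16 genes lower as deposited became 25 with a pseudocount of 0.1 and 7 at a mean of at least 5 FPKM. After rescaling, the 170 higher genes became 583 with a pseudocount of 0.1 and 260 with equal column totals. The 95 lower genes became 191 with a pseudocount of 0.1, 58 at a mean of at least 5 FPKM and 61 with equal column totals. The cause was not tested, other than that a higher filter leaves 6593 genes. With equal totals the 170 higher genes all kept their call and 61 of the 95 lower did. The other counts stayed within 1.5 times. Of 405 named genes, a pseudocount of 0.1 brought 47 past 2-fold, rescaling over the FGO columns alone 18, and equal totals moved 18 past it and 9 below it. A mean of at least 5 FPKM moved 3 past it and 2 below it. No called gene changed direction under these alternatives. Of 64 list medians, 17 changed sign with equal totals, 11 with no filter, 11 once genes of like length and level were subtracted, 7 at a mean of at least 5 FPKM and 3 with the FGO columns alone, and none of them reached 2-fold under any alternative. Leaving out a sample was not possible. No paired analysis was possible because the table has a single column for each genotype and stage. Depth is unknown, so the counting error of low values is unknown too.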

Other observations

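Genes were also divided into 5 equal groups by their step from NGO to GO, in columns outside the FGO comparison. From the group with the lowest step to the group with the highest in WT, the median FGO difference between KO and WT went from 0.13 through 0.06, 0.01 and -0.03 to -0.05, with 46 higher and 9 lower genes in the first group and 30 and 29 in the last. Divided by the step in KO, the order was the opposite, from -0.06 through -0.03, 0.00 and 0.09 to 0.10, with 30 higher and 44 lower genes in the first group and 56 and 13 in the last. The 135 long intergenic RNAs had a median of -0.12 and the 63 antisense RNAs -0.16, against 0.02 for 9738 protein-coding genes, and reads of antisense genes cannot be told from those of their partners in unstranded libraries.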
